A study of Anolis chlorocyanus and Anolis cybotes and Anolis osa with 24 samples.

Results

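Gene expression in leg muscle was compared with that in jaw muscle of males of Anolis cybotes, a large-headed, ground- and trunk-dwelling lizard. The comparison took 6 of the 24 libraries of the series, 3 of jaw muscle and 3 of leg muscle, chosen by their titles. The titles number the libraries 01, 03 and 08 in each muscle, which gave 3 pairs. The other 18 libraries are jaw and leg muscle of A. chlorocyanus, A. osa and A. sagrei, 6 per species, and were used here to see whether differences found in cybotes recurred. RNA was taken from whole muscle, with no treatment named, and the labels name the tissue only as jaw or leg muscle of males. No age, individual muscle or batch is given in the sources used here.

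Jaw muscles of vertebrates arise from the mesoderm of the head, under a network of regulators that differs from the one used in the trunk. Limb muscles arise from somites, whose precursor cells migrate into the limb bud. The mature muscles are built from the same kind of sarcomere but can use different members of the myosin, troponin and tropomyosin families, which set the speed and economy of contraction. In several vertebrates the jaw closers hold a myosin isoform of their own. Jaw muscle in anoles powers biting in feeding and in contests between males, and leg muscle powers running and jumping. The series was set up around expression and the contractile physiology of these muscles.

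The deposited table pairs its 25920 identifiers with no gene symbols. The labelled tissue could therefore not be checked against muscle markers, and no function is given for any gene below. Genes with the largest changes are named by identifier and the others by their rank and values. The 6 libraries held 1347510 to 1754588 counts and detected 11344 to 12902 identifiers each, and leg had the higher total and the more identifiers in 3 of 3 pairs. Levels are given in CPM (counts scaled to a common library size) after trimmed-mean (TMM) scaling of these 6 libraries. Unless stated otherwise, CPM of the other species come from a separate scaling of their own libraries. Levels set side by side across species are then only roughly comparable. All species were also counted on the same identifiers, and how well the reads of each species align to them was not tested. Levels and ratios compared across species carry that limit. A count of 3 in a single library corresponds to 1.39 to 2.38 CPM, depending on the library. The floor used for folds of genes at 0 in jaw was 3 counts in the 3 jaw libraries together, which is lower in CPM. The library of leg 08 stood apart from the other leg libraries in its level of jaw-type genes, as described below, and its absence from the fit is reported where it moved a value. In whole muscle, fewer cells of a type and less RNA per cell cannot be told apart.

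The question was which genes separate the leg and jaw muscle of cybotes, by how much, and how evenly over the 3 pairs. Leg muscle differed from jaw muscle mainly by genes that were higher in leg. Of 6814 genes tested, 199 were higher in leg (2.92% of those tested) and 68 were lower (0.998%) at an adjusted p of 0.05 by edgeR's quasi-likelihood test. With the title number as a block, which removes what the jaw and leg library of a number share, 488 were higher (7.16%) and 214 lower (3.14%), or 10.3% in either direction. All 267 genes called without the block were among the 702 called with it, and none changed direction. The median log2 fold change was 2.92 for the 199 genes and -2.09 for the 68, while the median over all genes tested was 0.02. Without both 08 libraries the unblocked test called 110 genes, 74 higher and 36 lower, and the blocked test 254 and 100. No other pair was left out of the unblocked test, so that drop cannot be assigned to pair 08. The unblocked count also moved to 172 without jaw 01, to 113 without jaw 08 and to 424 without leg 01. Without leg 08 it was 192, with 141 higher and 51 lower, and 172 of the 267 genes were called again.

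Large changes were mostly toward leg. Among genes called without the block, 90 were at least 8-fold higher in leg and 19 at least 8-fold lower. At 32-fold or more there were 24 higher and 1 lower, or 24 and 3 with the block. Without leg 08 the counts were 82 and 22 at 8-fold, and 27 and 9 at 32-fold. With genes at 0 counts in jaw set to 3 counts in the 3 jaw libraries together, 22 of the 24 reached 32-fold. The balance changed with abundance. Of 919 genes with a mean under 10 CPM over the 6 libraries, 24 were higher and 2 lower. A strongly changed gene of so low a mean passes the filter on low counts through the muscle where it is high. Whether the filter let in leg and jaw genes alike was not tested, so this split only describes the genes tested. Of 4695 genes between 10 and 100 CPM, 125 were higher and 32 lower. The 1200 genes over 100 CPM held 50 that were higher and 34 that were lower, or 90 and 99 with the block. The changed genes also weighed in the total counts. In sum, the 199 genes that were higher in leg took 17.03%, 14.3% and 16.9% of all counts in leg 01, 03 and 08, against 0.940%, 0.658% and 0.839% in the jaw libraries of the same numbers. The 68 genes lower in leg took 18.1%, 16.6% and 18.5% of jaw counts. In leg they took 0.791% in 01, 1.002% in 03 and 2.75% in 08. Since these libraries also chose both groups, the shares are a description.

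**Figure D1:**
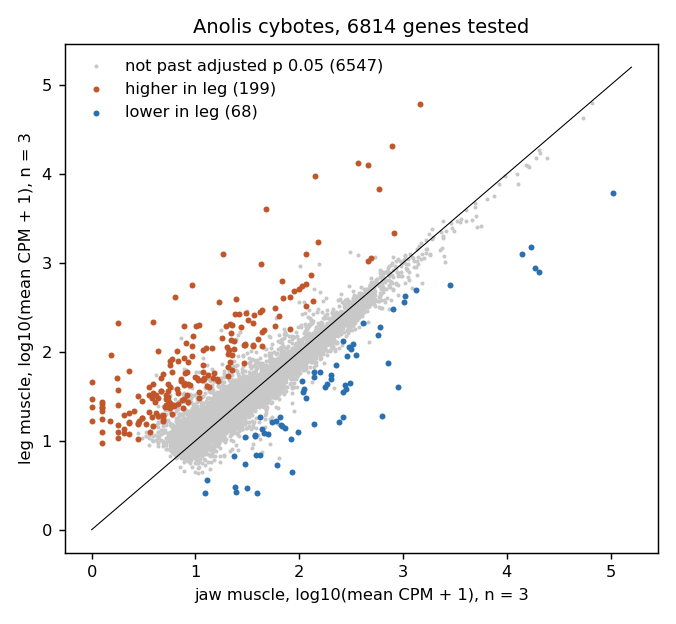
Mean level in leg (vertical) against jaw (horizontal), each as log10(CPM + 1) over 3 libraries, for the 6814 genes tested in cybotes. Points on the line are equal in both muscles; the 199 genes higher in leg (orange) reach up to means near 0 in jaw, and a small group of the 68 lower in leg (blue) lies far to the right, among the most abundant genes.

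The 2 genes with the largest fitted rise in leg had no counts in cybotes jaw muscle. A fitted fold against 0 counts depends on the prior count, so their place above genes detected in jaw is not a measured order. ENSACAG00000010855 stood at 58.5 CPM in leg 01, 29.3 CPM in leg 03 and 45.6 CPM in leg 08, with 0 counts in each of the 3 jaw libraries. All leg libraries lay above all jaw libraries, which the filter on low counts ensures for a gene at 0 in jaw. With jaw set to 3 counts in its 3 libraries together, leg was at least 54.3-fold higher (edgeR adjusted p = 0.00107, and 4.46e-05 with the block). ENSACAG00000004650 stood at 60.6 CPM in leg 01 but at 11.6 CPM in leg 03 and 12.6 CPM in leg 08, again with 0 counts in jaw. On the same floor leg was at least 33.3-fold higher (edgeR adjusted p = 0.0173, and 0.000209 with the block), although leg 01 was far above the other leg libraries. Its adjusted p by the same test was 0.0542 without jaw 01, 0.0707 without jaw 08 and 0.0681 without both 08 libraries. The floors cover counting error only.

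In the 9 pairs of the other species both genes were higher in leg in 9 of 9. ENSACAG00000010855 was at or near 0 in jaw there too, at 0 to 0.738 CPM (median 0), and at 24.6 to 86.0 CPM (median 59.3) in leg. ENSACAG00000004650 was detected in the jaw of the others, at 0 to 10.6 CPM (median 6.12), and its leg level was 4.04 to 54.4 CPM (median 41.1). The former was thus at 0 in cybotes jaw within a range the other species share, and the latter lay at the lower end of their jaw range.

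The 2 genes with the largest fall in leg were both abundant in jaw. ENSACAG00000006784 stood at 616, 575 and 668 CPM in jaw 01, 03 and 08, and at 4.18, 5.57 and 43.5 CPM in leg 01, 03 and 08. Jaw was even, while leg 08 was far above the other leg libraries. Its fitted log2 fold change came to -5.16 (edgeR SE 0.74, adjusted p = 0.00389), -5.55 (SE 0.51) with the block, and -6.95 without leg 08. ENSACAG00000000066 stood at 24338, 16220 and 20480 CPM in jaw 01, 03 and 08, and at 231, 250.3 and 1887 CPM in the leg libraries. The change was -4.69 on the log2 scale (SE 0.83, edgeR adjusted p = 0.0108), -5.44 (SE 0.60) with the block, and -6.41 without leg 08. Leg 08 again held the highest leg level, by a wide margin, and it still lay well below every jaw library.

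In the other species the median leg level of both lay below each cybotes leg library, though the ranges overlapped. ENSACAG00000006784 had 0 to 7.11 CPM in their leg libraries (median 0.809) and 478 to 1178 CPM in jaw. ENSACAG00000000066 had 2.40 to 380 CPM in leg (median 11.5) and 2284 to 20836 CPM in jaw. Across the separate scalings, leg 01 and leg 03 of cybotes lay within these leg ranges for both genes, above the medians. Leg 08 lay above both ranges.

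**Figure D2:**
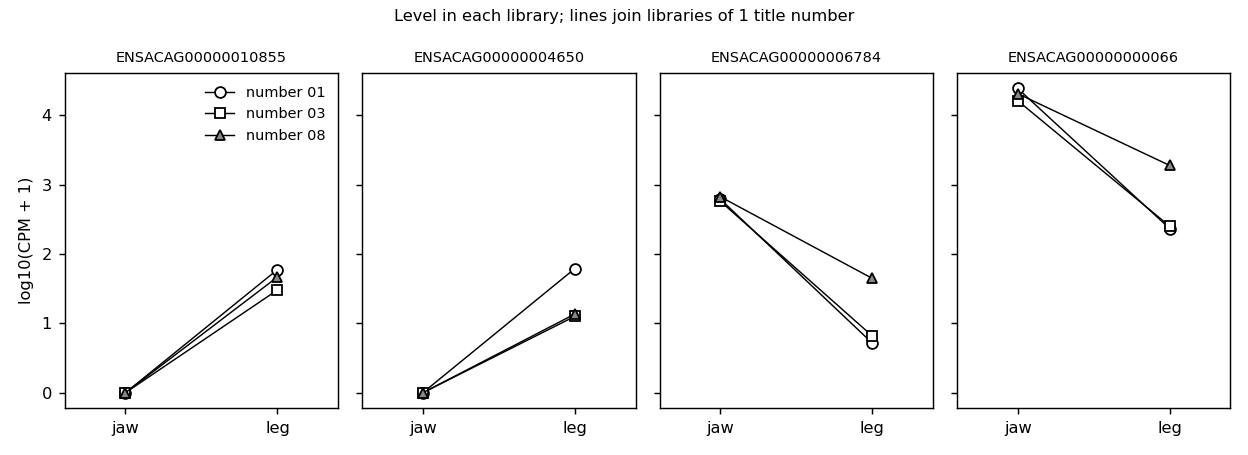
Level of the 4 named genes in each cybotes library as log10(CPM + 1), with a line joining the jaw and leg library of each title number. The 2 genes on the left have 0 counts in jaw; in the 2 on the right the leg level of number 08 (grey triangle), 43.5 and 1887 CPM, lies above those of numbers 01 and 03.

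Of the 12 genes with the largest fitted rise, 4 had 0 counts in all jaw libraries and were at least 19.2-fold to at least 54.3-fold higher in leg. The other 8 had log2 fold changes of 6.16 to 7.92. The 12 means were 15.8 to 3985 CPM in leg and at most 47.2 CPM in jaw. The 12 with the largest fall ran from -5.16 to -3.80, with jaw means of 23.4 to 104536 CPM. Without leg 08 the same 12 ran from -6.95 to -3.73. No further gene among the 199 had 0 counts in all jaw libraries. None of the 68 lower in leg had 0 counts in all leg libraries.

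The most abundant genes showed both patterns side by side. The most abundant gene over the 6 libraries stood at 76636, 63347 and 60094 CPM in jaw and 75059, 49692 and 62855 CPM in leg 01, 03 and 08. The groups overlapped, and the log2 fold change was -0.09 (edgeR adjusted p = 0.956). The second most abundant stood at 104149, 94675 and 114785 CPM in jaw and at 1952, 2446 and 13739 CPM in leg. The groups were far apart, with a log2 fold change of -4.11 (edgeR adjusted p = 0.0143). Without leg 08 it was -5.58 (edgeR adjusted p = 0.000382). The third did not pass the test, with 54332 ± 9503 CPM in jaw against 42014 ± 9136 CPM in leg (SD, n = 3). The fourth was the mirror image of the second, at 2430, 569 and 1328 CPM in jaw and 73926, 39655 and 69205 CPM in leg, a log2 fold change of 5.40 (edgeR adjusted p = 0.00139). Of the 20 most abundant genes, 5 were lower and 2 higher in leg, by both fits.

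In the 5 abundant jaw genes, which include ENSACAG00000000066, the leg level as a share of the jaw level was highest in pair 08. It ran from 0.951% to 2.53% in pair 01, from 1.54% to 4.32% in pair 03 and from 9.22% to 21.2% in pair 08. Pair 08 thus stood above both other pairs in each of the 5 genes. Pair 03 also stood above pair 01 in each of them, though the ranges of these 2 pairs overlapped. For the 2 abundant leg genes, the jaw level was 3.29% and 4.43% of the leg level in pair 01, 1.44% and 3.48% in pair 03, and 1.92% and 3.31% in pair 08. Here pair 08 did not stand apart.

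Evenness over the 3 pairs was described with the leg minus jaw difference of log2 CPM in each pair. Of the 6814 genes, 3044 (44.7%) had the same sign in 3 of 3 pairs, 1675 toward leg and 1369 toward jaw. All 267 called genes did, which the test favours. A stricter description asked for at least 2-fold in each of the 3 pairs and a mean of at least 5 CPM in the higher muscle. It was met by 250 genes toward leg (3.67%) and 76 toward jaw (1.12%). The blocked test called all 250 of the former and 75 of the latter, and the unblocked test 175 and 57. All 3 leg libraries lay above all 3 jaw libraries in 762 genes (11.2%) and below them in 571 (8.38%). None of the 267 genes called without the block had overlapping groups, which the test also favours. Among the 702 blocked calls the groups overlapped in 118.

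The pairs did not weigh equally. At least 2-fold differences toward leg numbered 605 genes in pair 01, 785 in pair 03 and 946 in pair 08. Toward jaw they numbered 310, 266 and 488. Pair 08 thus had the most 2-fold differences in both directions. At 8-fold or more it had the most toward leg (112, against 61 in pair 01 and 94 in pair 03) and the fewest toward jaw (15, against 24 and 23). Across the 6814 genes, Spearman's rho between the differences of 2 pairs was 0.400 for 01 and 03, 0.289 for 01 and 08, and 0.561 for 03 and 08. These are correlations across genes, which are not independent replicates, and the pairs share no library. Differences of at least 2-fold in opposite directions between pairs occurred in 62 genes, none of them called by either fit, which opposite directions make unlikely.

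**Figure D3:**
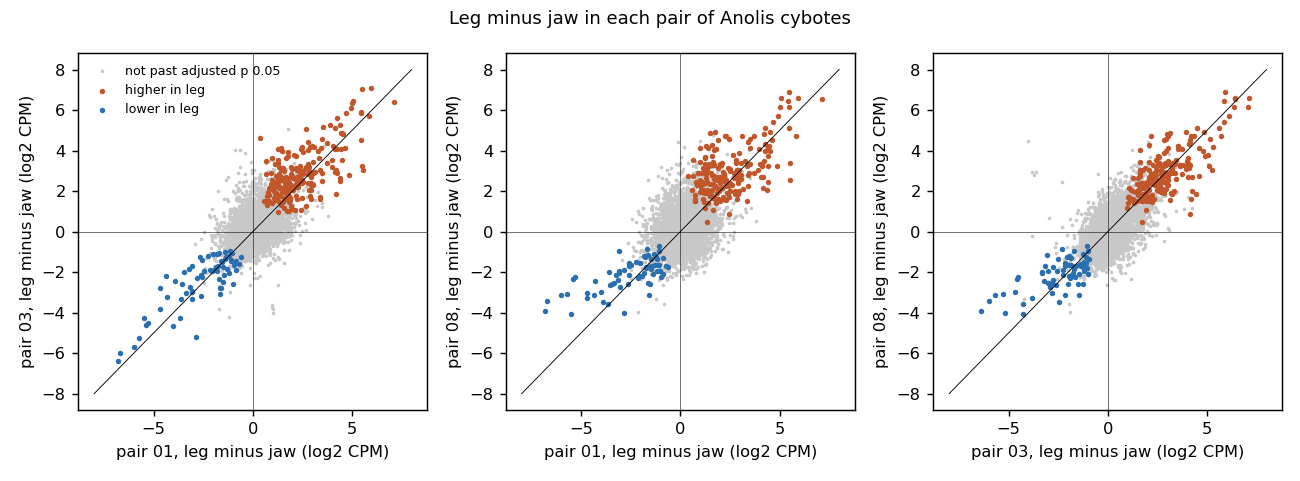
Leg minus jaw difference (log2 CPM) of the 6814 genes in one pair against another, for the 3 combinations of pairs; orange and blue mark the 199 and 68 genes called. Called genes lie in the upper right and lower left in all panels, and the most negative differences of pairs 01 and 03 are nearer to 0 in pair 08.

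The spread that the block removes was large. In these 6 libraries 44.8% of the variance in log2 CPM, summed over the tested genes, lay between the muscles, 39.3% between the title numbers and 15.9% in the remainder. No correction for degrees of freedom was made to them. The first principal component (45.9% of variance) separated every leg from every jaw library, and the second (21.3%) placed number 01 apart from number 03 in both muscles, with 08 between them. The block added 435 genes, 289 higher and 146 lower in leg, to those called without it. Their median absolute log2 fold change was 1.33, against 2.69 for the 267, and 427 of them had the same sign in 3 of 3 pairs. The added genes were therefore changes of moderate size, in genes whose level ranged over a median of 0.95 on the log2 scale within jaw and 1.10 within leg. The same ranges were not computed for the other genes, so these values show no excess spread.

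To follow muscle-restricted genes without choosing them on the cybotes libraries, 2 classes were defined in the other 3 species. They were called there for leg against jaw (303 of 8827 genes higher, 3.43%, and 267 lower, 3.02%, or 6.46% in all), with a log2 fold change of at least 5 in size and at least 5 CPM in the higher muscle. The leg class had 27 genes and the jaw class 12. Of the leg class, 22 passed the filter on low counts in cybotes and all 22 were called higher in leg, in 3 of 3 pairs each. Over all tested genes 2.92% were called higher, 0.998% lower, and 44.7% had the same sign in 3 of 3 pairs. The other 5 had 16 to 70 counts over the 6 cybotes libraries. Of the jaw class, 8 passed the filter, all 8 were lower in leg in 3 of 3 pairs, and 7 were called. The remaining gene had a log2 fold change of -2.05 (edgeR adjusted p = 0.178, and 0.000283 with the block). The other 4 had 27 to 49 counts over the 6 libraries. The classes come from other libraries, but a member that passes the filter had to be well detected in one muscle, so these counts describe the members tested.

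The tested members of both classes thus kept their direction in cybotes, with a smaller contrast. With genes at 0 in a muscle set to the floor of 3 counts, the median log2 fold change of the 22 leg genes was 5.90 in cybotes and 7.38 in the species that defined the class. For the 8 jaw genes it was -4.00 in cybotes, -5.30 without leg 08, and -7.73 in those species. Part of such a gap follows from choosing the genes for a large contrast in the others, so the comparison was repeated with each species left out in turn when its classes were chosen, as given below. That repeat does not remove the effect of the choice in full, because cybotes helped choose the classes of the others but not its own.

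The leg class took 12.5%, 9.31% and 12.1% of counts in leg 01, 03 and 08, and 0.408%, 0.149% and 0.287% in jaw 01, 03 and 08. The jaw class took 16.6%, 14.98% and 16.96% in jaw, and 0.331%, 0.510% and 2.32% in leg. The exact 95% binomial interval of the last value was 2.29% to 2.34%, which covers counting error only. Own and opposite muscle did not overlap for either class, and an exact two-sided permutation test gave p = 0.10 for both, the smallest that 3 against 3 libraries allow. The mean leg share of the jaw class was 1.05%, and 0.420% without the 08 libraries. Of the 8 tested jaw-class genes, 7 were highest in 08 among the leg libraries, whereas none had its lowest jaw level in jaw 08. These 8 include the 5 abundant jaw genes and both named genes with the largest fall. The jaw-class values in leg 08 therefore repeat the pattern of those genes and are not a separate observation. Of the 22 tested leg-class genes, 2 had 0 counts in all jaw libraries. Among the other 20, 12 were highest in jaw 01, 5 in jaw 03 and 3 in jaw 08. The same tallies over all tested genes were not made, so these counts only describe the class members.

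Whether cybotes keeps more of each class in the opposite muscle was examined by giving every species classes chosen in the other 3. The leg class then had 27 genes for cybotes and 25 to 29 for the others, and the jaw class 12 and 8 to 9. Cybotes, with its smaller contrast, was among the species that chose the classes of the others. How much this adds to a difference was not tested. The share of the class in the opposite muscle was divided by that in its own muscle, pair by pair. For the leg class this was 3.27%, 1.60% and 2.37% in cybotes pairs 01, 03 and 08, and 0.0718% to 0.972% in the 9 pairs of the other species. All 3 cybotes pairs lay above all others. The mean log2 ratio was -5.43 ± 0.52 in cybotes (SD, n = 3) and -8.02 ± 1.08 in the others (SD, n = 9), a difference of 2.59 (exact two-sided permutation p = 0.00455, the smallest possible here, and 0.00909 after Benjamini-Hochberg adjustment over both classes). With a class threshold of 3 in place of 5 on the log2 scale the difference was 0.77 (exact permutation p = 0.0364). Here and for the jaw class, the permutation moved pairs freely between species, although the 3 pairs of a species share a class list. The p-values therefore measure the spread between pairs. With only cybotes set against the others, they cannot show a difference between species.

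For the jaw class the ratio was 1.99%, 3.40% and 13.7% in cybotes, whose class here is the one described above, with the same abundant genes. In the others it was 0.0335% to 5.09%, the highest value belonging to osa 07, above cybotes 01 and 03. The mean log2 ratio was -4.47 ± 1.43 in cybotes (SD, n = 3) and -8.76 ± 2.05 in the others (SD, n = 9), a difference of 4.29 (exact two-sided permutation p = 0.0136, and 0.0136 after adjustment over both classes). With cybotes pair 08 left out of the pairs measured, the difference was 3.49 (exact permutation p = 0.0727). The leg class then kept a difference of 2.57 (exact permutation p = 0.0182). The classes of the other species were still chosen with the cybotes 08 libraries included. With no gene symbols, which cells carried these transcripts was not tested.

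**Figure D4:**
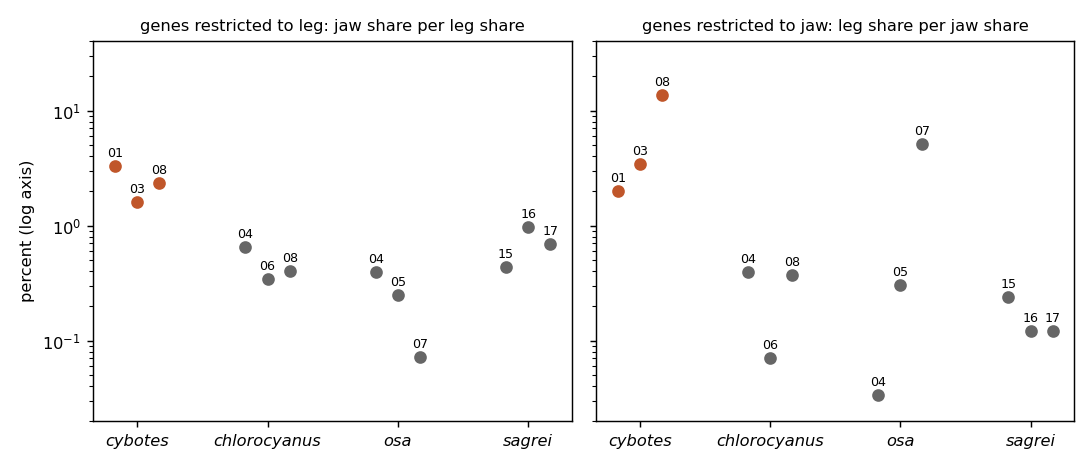
Share of counts of a muscle-restricted class in the opposite muscle as a percent of its share in its own muscle, on a log axis, for each pair (title number above the point) of the 4 species; each species has classes chosen in the other 3. The 3 cybotes pairs lie at 1.60% to 3.27% for the leg class, above all others, and at 1.99% to 13.7% for the jaw class, where osa 07 reaches 5.09%.

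Calls made in cybotes were then followed into the other species, whose libraries had no part in them. Of the 267 called genes, 258 passed the filter in the 18 other libraries. On average over the 9 pairs there, 89.7% ± 1.90 (SD, n = 9) of the 258 had the same sign as in cybotes, with 86.8% in the lowest pair and 93.0% in the highest. Over all tested genes the figure was 59.8%. The sign recurred in 9 of 9 pairs for 159 of the 258 (61.6%), against 9.57% of all genes, and in 0 of 9 for none. Genes lower in leg recurred at 92.1% and genes higher in leg at 88.9%. For the 702 blocked calls the figure was 82.8%, and for the 435 added by the block 78.6%.

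The size recurred less fully than the sign. Genes higher in leg in cybotes had a median log2 fold change of 2.88 there and 1.34 in the mean of the others. Genes lower in leg had -2.01 and -1.34. A smaller size in the libraries that did not choose the genes follows in part from the choice. In the fit of the other 3 species 146 of the 258 were called in the same direction and none in the opposite one. With each species fitted alone, cybotes shared 28 genes with chlorocyanus (10.5% of the cybotes calls, 84.8% of the 33 of chlorocyanus), 107 with osa (40.1% and 48.4%) and 82 with sagrei (30.7% and 63.6%). Those species had 0.451%, 3.05% and 1.81% of their tested genes called, and cybotes 3.92%.

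**Figure D5:**
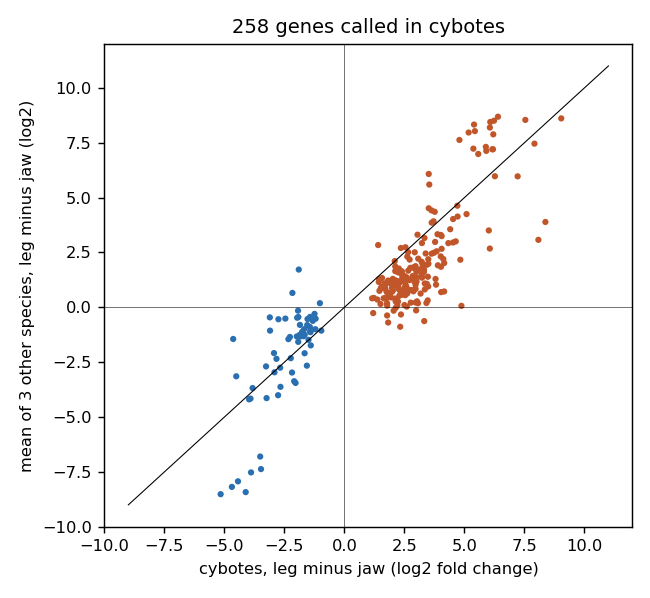
Log2 fold change of leg against jaw in cybotes (horizontal) and its mean in the other 3 species (vertical) for the 258 genes called in cybotes and tested in both; the line marks equal values. Most points keep their sign, with medians of 2.88 and 1.34 for genes higher in leg, and the lower left group reaches further from 0 in the other species than in cybotes.

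The last comparison asked for which genes the leg minus jaw difference of cybotes differed from its mean in the other 3 species, tested directly over all 24 libraries. Without the block 1 of 9123 genes passed (0.011%) by the edgeR test, and 500 had an unadjusted p under 0.05. That is little above the number this threshold would pass with no difference in any gene. With the block 174 passed (1.91%), 79 more toward leg in cybotes (0.866%) and 95 more toward jaw (1.04%). By the same blocked fit, 78 of the 174 differed between leg and jaw in cybotes and not past the threshold in the mean of the others, 33 of them higher in leg. A further 49 differed in the same direction in both, 34 of them more in cybotes, and 11 differed in opposite directions. In the remaining 36 only the mean of the others passed. Over all 9123 genes the same fit called 1384 in cybotes, 753 higher and 631 lower in leg. The 174 were chosen on a difference that includes the cybotes one, which favours calls in cybotes. Shares of these kinds over all genes are not given here, so the counts only describe the 174. Without pair 08 the blocked count was 39, 9 toward leg and 30 toward jaw. No other pair was left out of this comparison, so the drop cannot be assigned to pair 08.

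The gene that passed without the block was ENSACAG00000003082. On the scaling of all 24 libraries it stood at 85.5, 108.5 and 78.2 CPM in cybotes jaw 01, 03 and 08, and at 6.76, 10.9 and 11.1 CPM in leg. In chlorocyanus its jaw level was 26.5 ± 2.98 CPM and its leg level 26.5 ± 2.52 CPM. The corresponding levels were 10.6 ± 1.01 and 8.82 ± 5.35 CPM in osa, and 19.7 ± 10.5 and 8.70 ± 2.98 CPM in sagrei (SD, n = 3 each). Cybotes jaw was above every other group, and cybotes leg lay at the level of osa and sagrei leg. The difference of cybotes from the others was -2.75 on the log2 scale (SE 0.45, edgeR adjusted p = 0.0346) and -2.78 with the block (edgeR adjusted p = 0.000697). Without the block the adjusted p was between 0.0924 and 0.178 when jaw 01, leg 01, jaw 03, leg 03 or leg 08 was left out, and 0.303 without pair 08, where the blocked value was 0.000722.

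The gene with the second smallest adjusted p showed the reverse case, a leg bias of the other species that was not found in cybotes. ENSACAG00000010677 stood at 25.0, 6.78 and 8.69 CPM in cybotes jaw 01, 03 and 08 and at 18.02, 4.75 and 5.55 CPM in leg, so that jaw was the higher in each pair. In the jaw of the other species it reached at most 3.09 CPM, and group means were 0.468 to 1.32 CPM. Their leg means were 9.67 to 10.99 CPM, and that of cybotes leg was 9.44 ± 7.44 CPM (SD, n = 3). The difference was -4.35 on the log2 scale (SE 0.84, edgeR adjusted p = 0.139). With the block it was -4.30 and passed (edgeR adjusted p = 0.00164). In both genes every cybotes jaw library lay above every jaw library of the other species.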

How the data were processed

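The authors deposited counts as whole numbers with no normalization, 1 row per gene identifier, for 24 libraries. Per the submitters' processing notes reads were aligned with STAR. Not given in the sources used here are its version, the counting program, strand, genome build and annotation. Totals were 1315319 to 1962685 counts per library.

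Counts of the 6 cybotes libraries were filtered with filterByExpr (6814 genes, 98.4% of counts), scaled by TMM and tested with edgeR 4.0.16 (R 4.3.3) by the quasi-likelihood F-test on 2 groups, leg minus jaw, with Benjamini-Hochberg adjustment and a threshold of 0.05. CPM are relative to the scaled sum of the tested genes. A prior count of 2 was added for log2 CPM. The standard error was taken as the size of the log2 fold change over the square root of F. The difference of cybotes from the other species was tested over all 24 libraries in 8 groups. Recurrence of calls and the gene classes used the 18 other libraries, and overlaps of calls used each species fitted alone. The functions were tested on simulated data. Replicates of a group differed beyond sampling noise (chi-square per degree of freedom 9.86 to 17.7). No label says that replicates are separate animals. The p-values measure only the spread between these libraries, which may be technical.

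Title numbers paired the libraries: deviations from group means correlated at 0.382, 0.549 and 0.362 between jaw and leg of the same number, and at -0.308 to -0.123 between different numbers. Deviations sum to 0 in a group of 3, so the latter are no separate evidence. The block left 2 residual degrees of freedom, the fit without it 4.

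Comparisons and gene classes were chosen with earlier results of these data known. The 4 named genes are those with the largest changes, called, with 1 sign in 3 pairs and at least 5 CPM in the higher muscle. For differences from other species they are the 2 with the smallest adjusted p. Gene lists by symbol and cell type markers were not analysed here. Other settings tried were 3 scalings, filters, DESeq2 1.42.0, limma voom 3.58.1, all libraries in 1 fit, and libraries or pairs left out.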

Additional observations from a re-analysis of the deposited data

Results flagged for a closer look

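The leg minus jaw difference of ENSACAG00000003082 differed between cybotes and the other 3 species by a direct test of that difference, at -2.75 on the log2 scale (edgeR adjusted p = 0.0346). In the blocked fit 174 genes differed in this way, 79 more toward leg and 95 more toward jaw in cybotes.

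The opposite-muscle ratio of both muscle-restricted classes differed between the cybotes pairs and those of the other species by exact permutation tests. These tests permuted pairs and do not measure the spread between species. Cybotes also helped choose the classes of the other species but not its own. The log2 difference was 2.59 for the leg class, where all 3 cybotes pairs lay above all 9 others, and 0.77 with a class threshold of 3. For the jaw class it was 4.29, where osa 07 lay above 2 of the 3 cybotes pairs. The whole-series results already showed both patterns, so these tests are no independent support.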

How the results depend on the processing

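For leg against jaw, no called gene changed direction under any setting run. The count of 267 became 702 with the replicate block, 695 with limma voom and the block, 416 with DESeq2 and 664 with all genes of at least 1 count. With the block and 1 pair left out it was 1467 (without 01), 492 (without 03) and 354 (without 08). It was 110 without pair 08 and no block, and 113 to 424 without 1 library. With all 24 libraries and the block it was 1384 (753 higher, 631 lower), and 664 without leg 08. All 24 libraries shifted the median of all genes by -0.10 on the log2 scale. The share of calls higher in leg was 74.5%, 69.5% with the block, 70.5% with all 24 libraries and 54.4% with both. Other scalings, the stricter filter, limma voom, a 2-fold minimum and all 24 libraries without the block gave 197 to 295.

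For cybotes against the other species, the count of 1 became 174 with the replicate block, 181 with limma voom and the block, 39 with the block without pair 08, 44 with all genes and 2 with limma voom. It was 0 to 2 without 1 cybotes library, and 0 without pair 08 and no block, where edgeR gave 303 genes an unadjusted p under 0.05. With no difference in any gene, that threshold would pass more than 303 of the 9585 genes tested. ENSACAG00000010677 passed in each of the 4 blocked or unfiltered fits run.

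The share of calls with the same sign elsewhere was 82.8% for blocked calls and 93.0% for calls without pair 08. A class threshold of 3 gave the leg class 13.6% of leg counts, against 11.3%. The opposite-muscle log2 difference was then 0.77 for the leg class, against 2.59, and 3.38 for the jaw class, against 4.29. The jaw-class difference was 3.49 with pair 08 left out of the pairs measured, past no threshold. Depth limits genes under about 2 CPM, which 3 counts correspond to. The causes were not tested.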

Other observations

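Besides muscle and title number, 1 set of genes followed neither. Of the 62 genes that changed at least 2-fold in opposite directions between pairs, 5 had leg minus jaw differences that spanned at least 4.5 on the log2 scale over the 3 pairs, and they were singled out after their values were seen. All 5 had their 2 highest levels in jaw 03 and leg 08. The most abundant of them stood at 1049, 8626 and 841 CPM in jaw 01, 03 and 08 and at 2040, 651 and 5823 CPM in leg. Together the 5 genes took 2.21% of counts in jaw 03 and 1.68% in leg 08, against 0.224% to 0.553% in the other 4 cybotes libraries. In the 18 libraries of the other species they took 0.195% to 0.863% (median 0.513%). The 2 libraries in which these genes were high belong to different title numbers and different muscles. Leg 08 is also the library with the highest leg share of jaw-class genes, 2.32%, and jaw 03 had the lowest jaw share of leg-class genes, 0.149%. Whether these shares relate to the 5 genes was not tested. None of the 5 passed the test for leg against jaw (edgeR adjusted p = 0.911 to 0.962).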
